A study of Mus musculus with 30 samples.

Results

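Dcn, Lum, Fbln1, Lox, Pdgfra and Vim encode decorin, lumican, fibulin-1, lysyl oxidase, the alpha receptor of platelet-derived growth factor (PDGF) and vimentin, which are made by the fibroblasts of connective tissue. They were followed in the mouse mammary gland from lactation through the first days of involution, in which the secretory gland regresses after weaning. The 6 genes were chosen with earlier results of these data known, so their counts beside the shares of all probes are descriptive. The members are every probe whose only gene symbol is one of these names. This gave 1 probe per gene, 6 of 6267 probes on the array, and 6 of the 5010 probes that had enough values to be tested. No member was lost to the filter on missing values.

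Fibroblasts build the matrix that surrounds the ducts and alveoli of the gland. Decorin and lumican are small leucine-rich proteoglycans that bind collagen fibrils and regulate their assembly, and decorin also binds TGF-beta. Fibulin-1 is a glycoprotein of elastic fibres and basement membranes, lysyl oxidase cross-links collagen and elastin, PDGFRA is a receptor tyrosine kinase of mesenchymal cells, and vimentin is the intermediate filament of such cells. During involution the alveolar epithelium dies, the matrix is remodelled and phagocytes clear the debris.

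The series holds 30 two-colour arrays of mammary gland RNA in 10 groups of 3 arrays. Mice were wild type (WT) or E2F3 +/-, that is, labelled as carrying 1 changed copy of the gene for the transcription factor E2F3. Glands were collected at lactation, which counts as day 0, and on days 1, 2, 3 and 4 of involution, from 3 animals per genotype and time. The sources used here do not give strain, age, parity or the make of the E2F3 allele. Gland RNA was labelled with Cy5 and set on each array against a common mouse reference RNA labelled with Cy3, on slides of spotted 70-base oligonucleotides. No probe used here is named E2f3, so the genotype labels could not be checked against the targeted gene.

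The values are linear ratios whose direction is likely gland over reference. The basis is the dye labels, together with the 9 probes of luminal epithelial genes, whose mean lay between 3.43 and 6.76 log2 units above the array median on all 30 arrays. In whole-gland RNA, fewer fibroblasts, less RNA per fibroblast and a change in the RNA of other cells cannot be told apart. Differences are on the log2 scale after each array was centred on its median, with a standard error (SE). A member is called when its limma p-value, adjusted over all 5010 probes of a comparison, is under 0.05.

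Of the 30 arrays, 22 correlated best with the other arrays of their own group, over the 3968 probes with a value on every array. The third WT day 2 array was nearest to E2F3 +/- day 4 (r = 0.867, against 0.495 with its own group). The third E2F3 +/- day 4 array had r = -0.0363 with its own group, and the first E2F3 +/- day 3 array had r = -0.109. The mean of the skeletal muscle probes was -0.55 in the third E2F3 +/- day 4 array, against 6.17 and 7.46 in the other arrays of that group, and all 6 members had their lowest ratio of the group there. Results that rest on these arrays are also given without them. The WT day 2 and E2F3 +/- day 4 arrays were left out together, and the E2F3 +/- day 3 array on its own.

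Promoters are shown for Fbln1 and Pdgfra, which differed between the genotypes on day 2, and for Vim, which was not called there. They come from RefSeq on GRCm38.p6, run from 250 bases before each start site through the first 50 bases after it, and lie on the + strand. RefSeq entries were matched for 3 of the 6 members. Capitals mark the motifs found, which are the TATA box TATAAA, the CCAAT box CCAAT and the GC box GGGCGG on either strand. Vim is at chr2:13574061-13574360, Pdgfra at chr5:75152001-75152300 and Fbln1 at chr15:85205758-85206057, which is 1 of its 2 listed starts.
Vim: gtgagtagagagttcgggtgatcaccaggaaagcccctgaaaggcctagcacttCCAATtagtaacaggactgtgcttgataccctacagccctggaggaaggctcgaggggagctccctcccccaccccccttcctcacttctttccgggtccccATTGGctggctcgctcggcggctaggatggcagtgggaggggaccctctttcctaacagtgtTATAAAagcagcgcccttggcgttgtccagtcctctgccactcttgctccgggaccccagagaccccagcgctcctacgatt
Pdgfra: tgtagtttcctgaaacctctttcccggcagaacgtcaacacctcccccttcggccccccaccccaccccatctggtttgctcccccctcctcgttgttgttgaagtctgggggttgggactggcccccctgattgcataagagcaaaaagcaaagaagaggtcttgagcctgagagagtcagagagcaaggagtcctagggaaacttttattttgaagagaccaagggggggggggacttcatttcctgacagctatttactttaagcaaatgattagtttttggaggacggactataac
Fbln1: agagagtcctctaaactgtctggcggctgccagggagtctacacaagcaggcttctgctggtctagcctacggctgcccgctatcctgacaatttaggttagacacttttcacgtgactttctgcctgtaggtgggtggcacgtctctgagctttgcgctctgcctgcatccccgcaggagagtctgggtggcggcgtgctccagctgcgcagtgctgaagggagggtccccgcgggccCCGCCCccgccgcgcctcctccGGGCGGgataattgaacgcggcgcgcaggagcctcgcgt
The Vim window holds TATAAA from position -32, counted from the start site, and the CCAAT box from -196 and -94. The Fbln1 window holds the GC box from -11 and from 12. The Pdgfra window held none of the motifs searched. Neither the AP-1 site (TGACTCA or TGAGTCA) nor the E2F site (TTTCCCGC, TTTGGCGC, TTTCGCGC or TTTGCCGC) was found in these windows on either strand, and no matches overlapped. Of 32851 promoters of the same length, 13.6% held the TATA box, 37.4% the CCAAT box, 35.7% the GC box, 5.2% the AP-1 site and 2.26% the E2F site. A match describes letters only, and the search says nothing about the factors. No sequence is shown for Dcn, Lum or Lox. On that assembly Dcn and Lum are neighbours with 0 genes between them.

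The first question is how each member moved over involution within a genotype. Dcn, the collagen-binding proteoglycan decorin, rose between day 1 and day 2 in WT glands and stayed high, and in E2F3 +/- glands it was called higher from day 2 and came near the WT level on day 3. In WT glands the deposited Dcn ratio was 2.01, 1.64 and 1.49 at lactation, 1.5, 1.37 and 0.853 on day 1, 7.89, 15.6 and 12.2 on day 2, 10, 12.1 and 11.7 on day 3, and 11, 19.7 and 9.26 on day 4. In E2F3 +/- glands the Dcn ratio was 1.42, 1.66 and 1.46 at lactation, 2.94, 2.12 and 1.64 on day 1, 3.27, 3.2 and 2.47 on day 2, 6.69, 7.49 and 11.4 on day 3, and 12, 14.3 and 7.69 on day 4. The WT arrays of days 2, 3 and 4 all lay above every WT array of lactation and day 1, and the E2F3 +/- day 2 arrays lay between these levels. Against lactation, Dcn changed by -0.62 ± 0.30 (SE, adjusted p = 0.111), 2.57 ± 0.30 (5.07e-07), 2.60 ± 0.30 (7.33e-07) and 2.74 ± 0.30 (2.77e-07) log2 units on days 1 to 4 in WT. The same differences in E2F3 +/- were 0.43 (0.228), 0.92 (0.0179), 2.33 (2.69e-06) and 2.62 (4.22e-07), each ± 0.30 with the adjusted p in brackets. The day 2 call of E2F3 +/- was lost without its first or second day 2 array or its first lactation array, with adjusted p up to 0.0638.

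Lum, which encodes lumican, rose in both genotypes, by day 2 in WT and already by day 1 in E2F3 +/-. Its probe had a value on 28 arrays, and all 28 ratios were whole multiples of 0.1. The other members had 0 such ratios, and probes outside the members were not examined for this. Whether the reference signal sat at a fixed lowest value, which would make the Lum ratio a bound, was not tested. The Lum ratio in WT glands was 4.2, 3.6 and 7.9 at lactation, 4.6 and 7.5 on day 1, 22.7, 29.8 and 19 on day 2, 36.7, 23.2 and 19.6 on day 3, and 15.3, 34.3 and 36.6 on day 4, with 1 missing value on day 1. The Lum ratio in E2F3 +/- glands was 1.4 and 1.4 at lactation, 13.8, 9.2 and 13.6 on day 1, 7.3, 8 and 1.5 on day 2, 21.8, 17.7 and 34.6 on day 3, and 42, 29.7 and 18 on day 4, with 1 missing value at lactation. The E2F3 +/- day 1 arrays lay above both the lactation and the day 2 arrays of that genotype, and 1 day 2 array, at 1.5, was at the lactation level. In WT, Lum differed from lactation by 0.15 ± 0.57 (adjusted p = 0.842), 2.07 ± 0.51 (0.00166), 2.25 ± 0.51 (0.00167) and 2.29 ± 0.51 (0.00101) log2 units on days 1 to 4. In E2F3 +/- it differed by 3.02 (0.000311), 1.62 (0.0261), 3.96 (1.31e-05) and 4.10 (6.10e-06), each ± 0.57. The E2F3 +/- day 2 call was lost with only the groups compared (adjusted p = 0.0769) and without the first or second array of day 2 or of lactation (up to 0.117). These E2F3 +/- differences rest on 2 lactation arrays at 1.4, and the lactation level itself was 1.83 ± 0.57 log2 units below that of WT (adjusted p = 0.237).

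Fbln1, the matrix glycoprotein fibulin-1, was highest on day 2 in WT glands, and in E2F3 +/- it was called higher on days 3 and 4. The Fbln1 ratio in WT was 0.635 and 0.501 at lactation, 0.456 and 0.325 on day 1, 2.64, 4.23 and 3.86 on day 2, 0.892, 1.5 and 0.922 on day 3, and 2.18, 3.06 and 1.28 on day 4, with 1 missing value at lactation and 1 on day 1. In E2F3 +/- the Fbln1 ratio was 0.28 and 0.706 at lactation, 0.808, 0.51 and 0.302 on day 1, 0.645, 0.712 and 0.653 on day 2, 0.609, 1.88 and 1.55 on day 3, and 2.06, 2.26 and 1.13 on day 4, with 1 missing value at lactation. All WT day 2 arrays stood above all WT day 3 arrays, whereas the E2F3 +/- day 2 arrays overlapped their lactation arrays. Against lactation, Fbln1 in WT was at -0.67 ± 0.52 (adjusted p = 0.315), 2.44 ± 0.48 (0.000235), 0.79 ± 0.48 (0.181) and 1.69 ± 0.48 (0.00596) log2 units on days 1 to 4. In E2F3 +/- it was at 0.08 (0.895), 0.54 (0.341), 1.31 (0.0210) and 1.73 (0.00358), each ± 0.48. Both E2F3 +/- calls were lost without the first of its lactation arrays, with 0.63 (adjusted p = 0.326) on day 3 and 1.04 (0.109) on day 4. The day 3 call was also lost without the second (0.0934) or the third (0.0700) day 3 array, and with only the groups compared (0.0900).

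Lox, the enzyme that cross-links collagen, was called higher by day 2 in both genotypes, in E2F3 +/- with arrays that overlapped those of lactation. The Lox ratio in WT glands was 0.119, 0.051 and 0.034 at lactation, 0.118, 0.112 and 0.127 on day 1, 0.311, 0.291 and 0.335 on day 2, 0.389, 0.221 and 0.259 on day 3, and 0.224, 0.179 and 0.139 on day 4. In E2F3 +/- glands the Lox ratio was 0.037 and 0.08 at lactation, 0.116, 0.118 and 0.126 on day 1, 0.158, 0.307 and 0.066 on day 2, 0.109, 0.266 and 0.23 on day 3, and 0.34, 0.342 and 0.174 on day 4, with 1 missing value at lactation. The WT day 2 arrays were close to each other, and those of E2F3 +/- spread from below the day 1 arrays to the WT level. In WT, Lox differed from lactation by 0.89 ± 0.45 (adjusted p = 0.124), 2.22 ± 0.45 (0.000303), 2.13 ± 0.45 (0.000891) and 1.43 ± 0.45 (0.0115) log2 units. In E2F3 +/- it differed by 1.05 (0.0904), 1.38 (0.0305), 1.66 (0.00790) and 2.08 (0.00129), each ± 0.51. The E2F3 +/- day 2 call was lost with quantile normalization (1.03, adjusted p = 0.106), with only the groups compared (0.0946), and without the first lactation array (0.81, 0.294), the first day 2 array (0.0730) or the second (0.86, 0.168). Without that lactation array the day 3 call was lost too (1.08, 0.133), as was the WT day 4 call without the third WT lactation array (1.04, 0.0793).

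Pdgfra, the receptor for PDGF on mesenchymal cells, was also highest on day 2 in WT and rose by day 2 in both genotypes. Its ratio in WT glands was 0.194, 0.258 and 0.188 at lactation, 0.125, 0.133 and 0.19 on day 1, 1.16, 1.56 and 1.41 on day 2, 0.616, 0.545 and 0.529 on day 3, and 0.789, 0.828 and 0.596 on day 4. Its ratio in E2F3 +/- glands was 0.125, 0.157 and 0.171 at lactation, 0.313, 0.18 and 0.292 on day 1, 0.582, 0.389 and 0.223 on day 2, 0.372, 0.932 and 1.2 on day 3, and 1.19, 1.55 and 0.416 on day 4. On day 2 every WT array was above 1, and every E2F3 +/- array was below it. In WT, Pdgfra differed from lactation by -0.64 (adjusted p = 0.207), 2.51 (2.09e-05), 1.29 (0.0146) and 1.64 (0.00194) log2 units on days 1 to 4. In E2F3 +/- it differed by 0.67 (0.162), 1.25 (0.0154), 2.18 (0.000128) and 2.37 (4.27e-05), and the SE was 0.40 throughout. The E2F3 +/- day 2 call was lost without the first day 2 array (0.91, adjusted p = 0.102) or the first lactation array (0.0581), and the WT day 3 call without the third WT lactation array (1.21, with an adjusted p just over the threshold).

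Vim, the intermediate filament of mesenchymal cells, rose in both genotypes with more overlap between them. The Vim ratio in WT was 0.126, 0.085 and 0.101 at lactation, 0.091, 0.084 and 0.132 on day 1, 0.21, 0.45 and 0.459 on day 2, 0.253, 0.218 and 0.252 on day 3, and 0.378, 0.447 and 0.323 on day 4. The Vim ratio in E2F3 +/- was 0.081, 0.065 and 0.051 at lactation, 0.126, 0.133 and 0.152 on day 1, 0.162, 0.276 and 0.159 on day 2, 0.151, 0.343 and 0.558 on day 3, and 0.465, 0.592 and 0.299 on day 4. The E2F3 +/- arrays of day 1 lay above those of lactation, while the WT arrays of these times overlapped. Vim differed from lactation in WT by -0.15 (adjusted p = 0.746), 1.59 (0.000689), 1.10 (0.0184) and 1.74 (0.000467) log2 units on days 1 to 4. In E2F3 +/- it differed by 0.99 (0.0299), 1.52 (0.00182), 2.12 (5.32e-05) and 2.51 (5.79e-06), and the SE was 0.36 throughout. The E2F3 +/- day 1 call was lost with quantile normalization (0.58, adjusted p = 0.230) and without the second or the third array of lactation, or the same of day 1 (adjusted p up to 0.110). The WT day 3 call was lost without the second WT lactation array (0.0740) or the first day 3 array (0.0509).

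**Figure D1:**
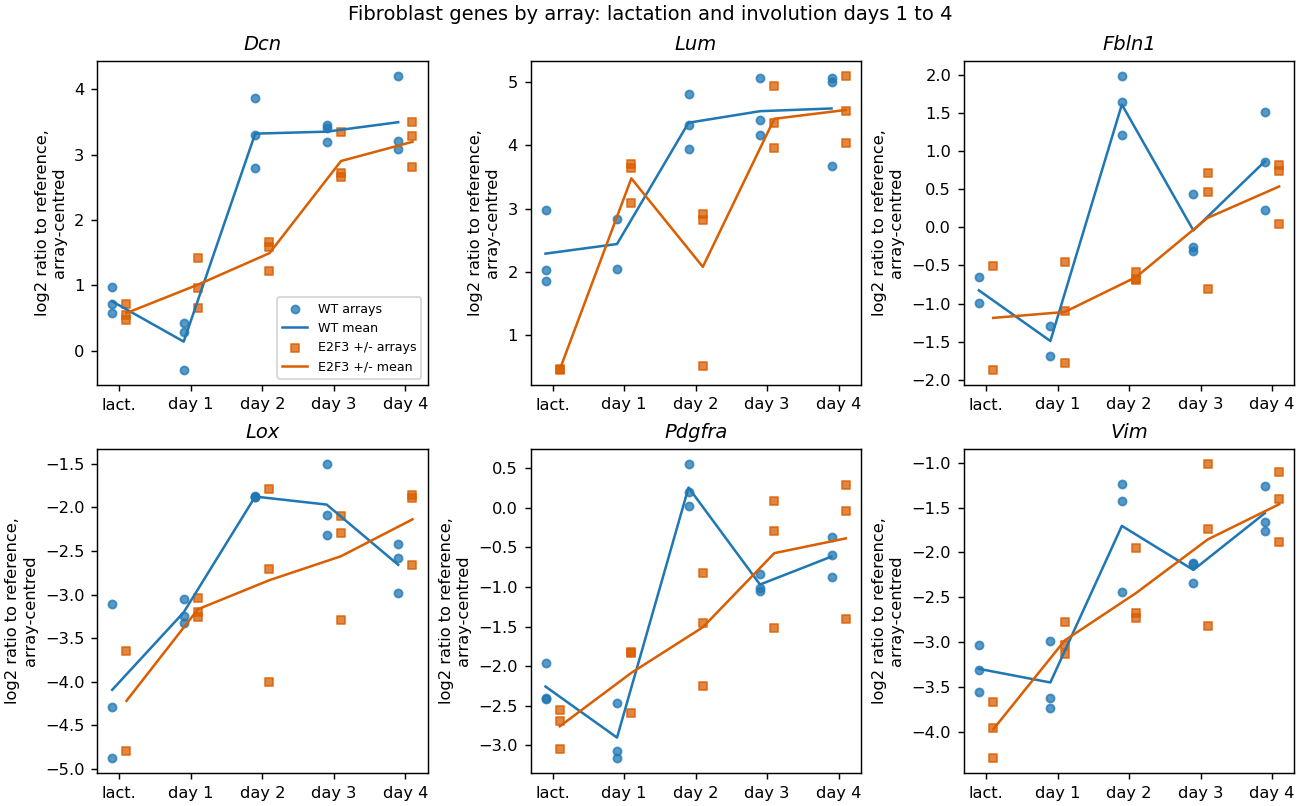
Array-centred log2 ratio to the reference (y axis) for each of the 6 genes at lactation and on days 1 to 4 of involution (x axis); each point is 1 array, blue circles WT and orange squares E2F3 +/-, and lines join group means. In WT, Dcn, Fbln1 and Pdgfra step up between day 1 and day 2, while the E2F3 +/- day 2 arrays of these genes lie below all WT day 2 arrays.

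Counted over the members, limma called 0 of 6 higher than lactation on day 1 in WT, where 18.5% of all tested probes were called higher, and 0 members had an unadjusted p under 0.05, against 2367 probes. On WT day 2 it called 6 of 6 (31.8% of all probes), on day 3 it called 5 (17.4%), all but Fbln1, and on day 4 it called 6 (25.4%). In E2F3 +/- it called 2 of 6 on day 1 (Lum and Vim, 23.2% of all probes), 5 on day 2 (23.7%), all but Fbln1, 6 on day 3 (34.2%) and 6 on day 4 (33.2%). No member was called lower than lactation on any of these days, where limma called 18.2%, 33.4%, 21.6% and 31% of all probes lower on days 1 to 4 in WT and 20.3%, 22.2%, 32.7% and 37.4% in E2F3 +/-. The median difference over the members was -0.38, 2.33, 1.71 and 1.71 log2 units on days 1 to 4 in WT, beside -0.07, 0.11, 0.08 and 0.06 over all probes. In E2F3 +/- the members' median was 0.83, 1.32, 2.15 and 2.44, beside 0.12, 0.14, 0.12 and -0.01 over all probes. The array ranges of day 2 and lactation did not overlap for 6 members in WT (32.5% of all probes, higher) and for 4 in E2F3 +/- (39.2%). Without the E2F3 +/- day 4 array that stands apart and the WT day 2 array nearest to another group, every member kept its call or lack of one on these days, and the day 4 differences of E2F3 +/- ran from 1.98 for Fbln1 to 4.36 for Lum. The first E2F3 +/- day 3 array was lowest for 5 of 6 members, and without it all 6 were still called on day 3. The 5 calls of E2F3 +/- day 2 fell to 1, Vim, without the first day 2 array or the first lactation array of that genotype, and to 2 without the second day 2 array.

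**Figure D2:**
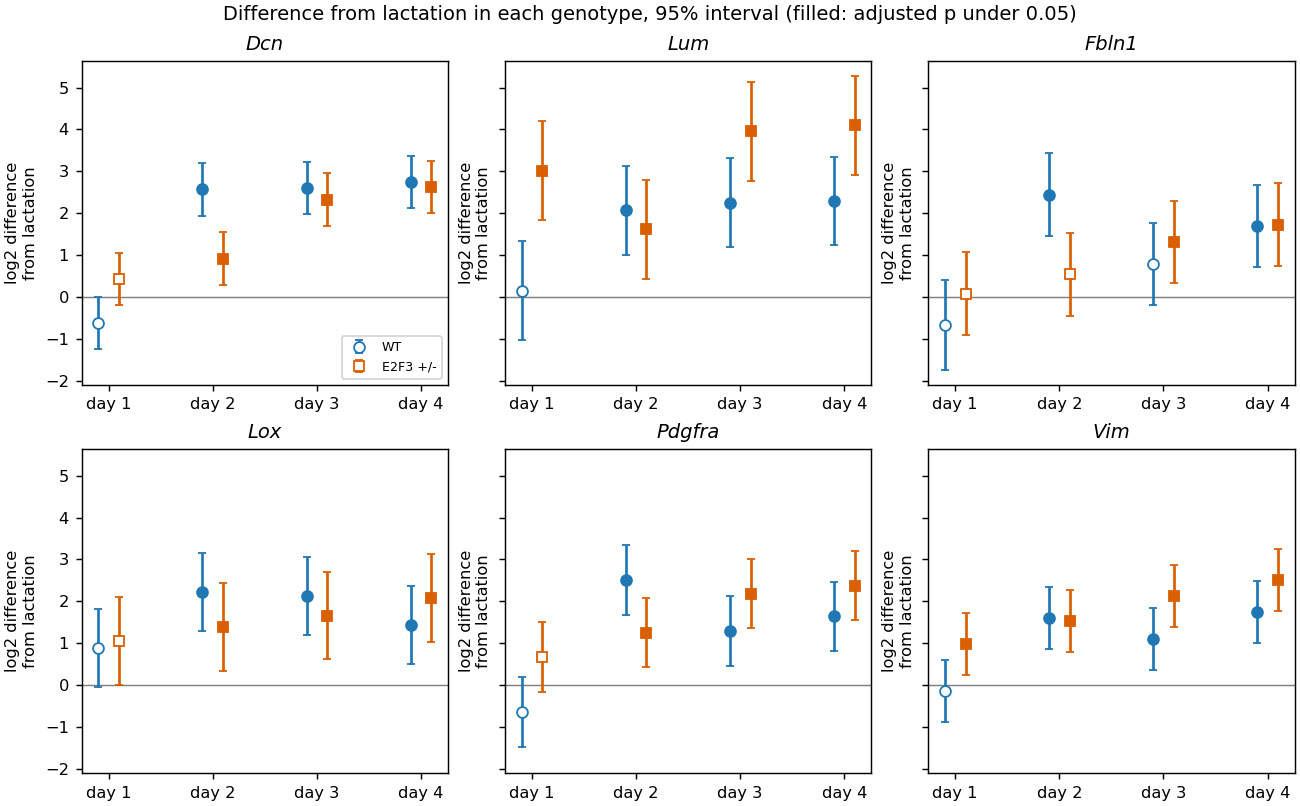
Log2 difference from lactation of the same genotype (y axis) on days 1 to 4 (x axis) with its 95% interval, blue circles WT and orange squares E2F3 +/-; filled symbols have an adjusted p under 0.05. All 6 genes are filled on WT day 2, and Fbln1 is open on day 2 in E2F3 +/-.

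Steps between consecutive days place the change. From day 1 to day 2 in WT, limma called 6 of 6 members higher, where 22.9% of all probes were called higher. Pdgfra rose by 3.15 ± 0.40 log2 units (8.9-fold, adjusted p = 5.48e-06), Dcn by 3.18 ± 0.30 (9.07-fold, 2.58e-07) and Fbln1 by 3.11 ± 0.48 (8.62-fold, 5.47e-05). Lum rose by 1.92 ± 0.57 (0.00924), Vim by 1.75 ± 0.36 (0.000555) and Lox by 1.33 ± 0.45 (0.0192). The Lum call was lost without the first WT day 1 array (adjusted p = 0.0929), and the Lox call without the second (0.0523). From day 2 to day 3 in WT, Fbln1 fell by 1.65 ± 0.43 (adjusted p = 0.0193) and Pdgfra fell by 1.22 ± 0.40 (0.0405), so 2 of 6 were called lower, where 6.99% of all probes were, and none was called higher, as 9.54% of all probes were. The Pdgfra fall was not called in 6 of the 30 fits that left out 1 array (adjusted p up to 0.112), and the Fbln1 fall not in 2 (up to 0.0782). From day 3 to day 4 in WT limma called 0 members and 0% of all probes, with 1 member and 695 probes at an unadjusted p under 0.05.

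In E2F3 +/- no step between consecutive days was called for a member with all arrays kept, equally weighted and centred on their medians. Limma called 0.0599% of all probes higher from day 1 to day 2 and 0% from day 2 to day 3 and from day 3 to day 4. Unadjusted p-values under 0.05 numbered 1, 3 and 0 members and 485, 863 and 329 probes in these steps. The step from day 2 to day 3 was 1.41 ± 0.30 for Dcn and 2.34 ± 0.51 for Lum, both with adjusted p = 0.0635. With all arrays kept, array weights called 4 members higher in this step, and quantile normalization called 1. Array weights also called 1 member higher in the step from day 1 to day 2. With single arrays left out, 0 to 4 members were called in the step from day 2 to day 3. It was called for 4 members without the first E2F3 +/- day 3 array, which had r = -0.109 with its own group. An F test over days 1 to 4 against lactation called all 6 members in WT, where 82% of all probes were called, and in E2F3 +/- (77.1%).

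The second question is whether the genotypes differed at a given time. On day 2, 4 of 6 members were lower in E2F3 +/- than in WT, where 5.57% of all probes were called lower and 7.17% higher. Dcn was 3.55-fold lower (log2 difference -1.83 ± 0.30, 95% interval -2.45 to -1.20, adjusted p = 0.00111). Fbln1 was 4.81-fold lower (-2.27 ± 0.43, -3.15 to -1.38, 0.00328), and Lum was 4.84-fold lower (-2.28 ± 0.51, -3.33 to -1.22, 0.00792). Lum was also lower at lactation, though not called (-1.83 ± 0.57, 0.237). Its change from lactation to day 2 differed between genotypes by -0.45 ± 0.77 (0.789), so its difference is not shown to be particular to day 2. Pdgfra was 3.39-fold lower (-1.76 ± 0.40, -2.59 to -0.93, 0.00792). The 3 arrays of each genotype did not overlap for these 4 genes, which 13.5% of all probes showed in this direction. Lox (-0.96 ± 0.45, adjusted p = 0.150) and Vim (-0.75 ± 0.36, 0.154) were not called, their arrays overlapped, and their intervals ran from -1.89 to -0.02 and from -1.49 to -0.01. The median over the members was -1.80, beside 0.04 over all probes.

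The third E2F3 +/- day 2 array had the lowest Dcn, Lum, Lox, Pdgfra and Vim ratio of its group, and over the 3968 probes it correlated best with E2F3 +/- day 1 (r = 0.560, against 0.465 with the other day 2 arrays). Without it, Lum (-1.49, adjusted p = 0.0691) and Pdgfra (-1.39, 0.0748) were not called, while Dcn and Fbln1 were called in all 30 fits that left out 1 array, with adjusted p up to 0.0155 and 0.0217. Without the WT day 2 array nearest to another group and the E2F3 +/- day 4 array that stands apart, all 4 were called, with differences from -1.79 to -2.48. Lum was not called when only the arrays of these groups were fitted (adjusted p = 0.0627) or with array weights (-1.93, 0.0633).

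At the other times limma called 0 members between genotypes. With array weights, Lum was called lower in E2F3 +/- at lactation (-1.88, adjusted p = 0.00862) and Dcn higher on day 1 (0.88, 0.0266), which is opposite in direction to its day 2 difference. The share of all probes called lower or higher was 0.16% and 0.22% at lactation, 0.319% and 0.339% on day 1, 0% and 0% on day 3, and 0.938% and 0.18% on day 4. Unadjusted p-values under 0.05 were seen for 1 member at lactation (Lum), 1 on day 1 (Dcn, 0.87 ± 0.30 higher in E2F3 +/-, adjusted p = 0.213) and 0 on days 3 and 4, against 374, 533, 691 and 841 probes. On day 4 the differences ran from -0.33 for Fbln1 (95% interval -1.21 to 0.55) to 0.52 for Lox (-0.41 to 1.46). Averaged over the 5 times, 0 members were called (0.22% of all probes lower, 0.399% higher), with differences from -0.64 for Lum to -0.10 for Vim, and 3 members and 661 probes had an unadjusted p under 0.05.

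**Figure D3:**
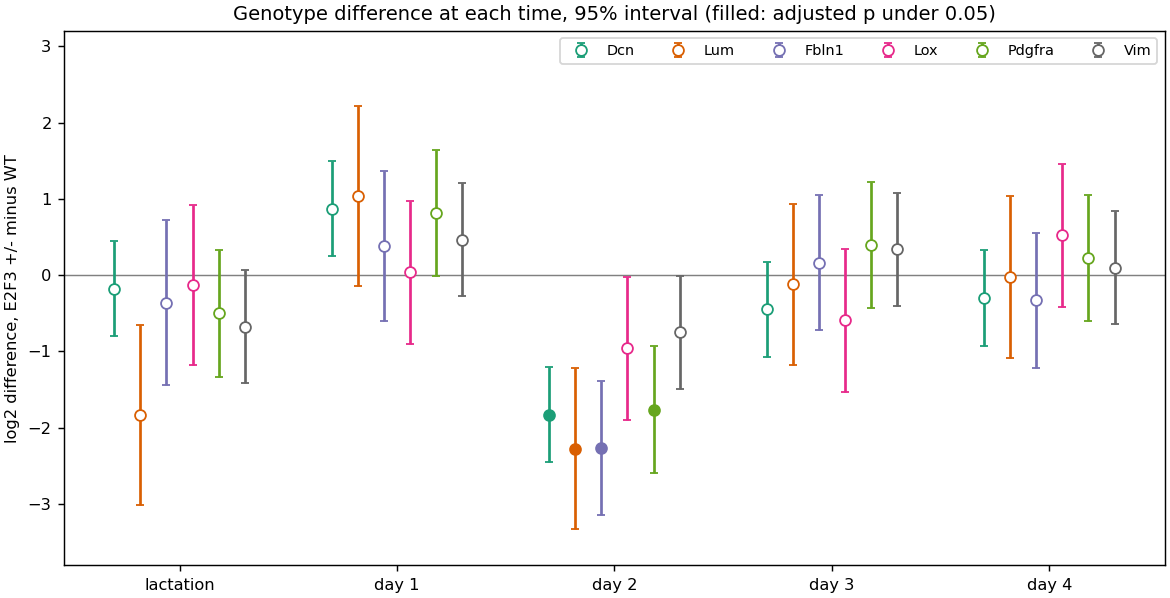
Log2 difference E2F3 +/- minus WT (y axis) at lactation and on days 1 to 4 (x axis) for the 6 genes by colour, with 95% intervals; filled symbols have an adjusted p under 0.05. Dcn, Lum, Fbln1 and Pdgfra are filled on day 2, and no symbol is filled at another time.

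The third question is whether the course over time differed between genotypes. The F test of genotype by time called 4 of 6 members, where 6.05% of all probes were called. The adjusted p was 0.0114 for Dcn, 0.0394 for Pdgfra, 0.0403 for Lum and 0.0477 for Fbln1, against 0.189 for Vim and 0.366 for Lox. Dcn was called in each of the 30 fits that left out 1 array (adjusted p up to 0.0413), Lum in 16, Pdgfra in 15 and Fbln1 in 7. For the change from lactation to any single day, limma called 0 members between genotypes. On days 1 to 4 it called 0.2%, 0%, 0.2% and 0.279% of all probes lower and 0.18%, 0%, 0.0399% and 0.0399% higher. Unadjusted p-values under 0.05 were seen for 4, 3, 1 and 1 members and 411, 822, 435 and 547 probes. The change from lactation to day 1 was higher in E2F3 +/- than in WT for these members (Dcn 1.05, Lum 2.87, Pdgfra 1.32, Vim 1.14). The change to day 2 was lower (Dcn -1.65, Fbln1 -1.90, Pdgfra -1.26). For Lum the change to days 3 (1.71) and 4 (1.81) was higher in E2F3 +/-, while its level differed by only -0.12 and -0.02 on these days. The step from day 1 to day 2 was compared after the data had been seen. The difference in this step, E2F3 +/- minus WT, was -2.70 ± 0.43 log2 units for Dcn (adjusted p = 0.00380), -3.31 ± 0.77 for Lum (0.0185), -2.65 ± 0.64 for Fbln1 (0.0222) and -2.58 ± 0.57 for Pdgfra (0.0161). Of all probes, 2.67% were called in this direction and 2.55% in the other. The difference was not called for Vim (-1.22 ± 0.51, 0.139) or Lox (-0.99 ± 0.64, 0.324). In E2F3 +/- the step itself was a smaller rise for Dcn (0.48), Fbln1 (0.46) and Pdgfra (0.58). For Lum it was -1.40 ± 0.51 (0.342), against 1.92 in WT. The difference also holds that of day 1, where E2F3 +/- was higher but not called (Dcn 0.87, Lum 1.04, Fbln1 0.38, Pdgfra 0.82). Single arrays mattered here too, with adjusted p up to 0.0660 for Lum without the first WT day 1 array, 0.0846 for Fbln1 without the third WT day 1 array and 0.0511 for Pdgfra without the third E2F3 +/- day 2 array.

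Ordered by mean level from the highest, Dcn was highest on days 4, 3 and 2 of WT, followed by days 4, 3, 2 and 1 of E2F3 +/-, and lowest on WT day 1. Of the 9 pairs of neighbouring groups in that order, 7 overlapped. The exceptions were E2F3 +/- day 3 over day 2, and E2F3 +/- lactation over WT day 1. Lum was highest on WT day 4 and lowest at E2F3 +/- lactation, and 6 of 9 neighbouring pairs overlapped. Fbln1, Lox and Pdgfra were all highest on WT day 2, with 8, 9 and 8 of 9 pairs overlapping, and Vim was highest on day 4 of E2F3 +/- (8 of 9). Across arrays the members moved together, with Pearson r between 0.646 (Lum and Fbln1, 26 arrays) and 0.897 (Pdgfra and Vim, 30 arrays), a description over arrays that share groups.

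Each member was compared with the probes of 1 gene symbol that had a value on every array where the member had one, which left 2467 to 2728 of 3997 such probes. Among these, the gene whose centred values followed Dcn most closely was Tyrobp, an adaptor protein of myeloid cells (r = 0.956 over 30 arrays), before Serpinf1 (0.954) and Ctss (0.953), a protease of phagocytes. Fbln1 was followed most closely by Spi1, a myeloid transcription factor (r = 0.935 over 27 arrays), Fermt3 (0.920) and Cfp (0.911). Pdgfra and Vim were both followed most closely by Pcolce, an enhancer of procollagen processing (0.940 and 0.936, 30 arrays), then by Coro1c (0.928) and Nid1 (0.927) for Pdgfra and by Fkbp9 (0.922) and Ccdc80 (0.918) for Vim. Lum was closest to Serping1 (0.876, 28 arrays), Ccl11 (0.839) and Aoc3 (0.833). Lox was closest to Bgn (0.862, 29 arrays), Ifitm3 (0.838) and Pf4 (0.834).

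Related genes were taken from lists of the members' families. Their counts stand beside 18.5%, 31.8%, 17.4% and 25.4% of all probes called higher than lactation on days 1 to 4 in WT. In E2F3 +/- these shares were 23.2%, 23.7%, 34.2% and 33.2%. Between genotypes on day 2, 5.57% of all probes were called lower in E2F3 +/- and 7.17% higher. Of the other small leucine-rich proteoglycans 3 were tested, and 2 of 3 were higher than lactation on days 2, 3 and 4 in WT and on days 2 and 3 in E2F3 +/-, with 3 of 3 on day 4. Prelp, a proteoglycan that anchors matrix to cells, rose by 2.58 ± 0.36 log2 units on WT day 2 (adjusted p = 4.02e-06) and by 1.95 ± 0.36 (0.000198) in E2F3 +/-. Bgn, which encodes the decorin relative biglycan, rose by 2.26 ± 0.40 (6.19e-05) and 1.88 ± 0.40 (0.000754). Ogn was at 0.60 and 0.09 on day 2, and its only call among the 8 comparisons of a day with lactation was on E2F3 +/- day 4 (1.20 ± 0.52, 0.0456). Between genotypes on day 2, 0 of 3 were called, with a median of -0.91, beside -1.80 for the members.

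Of 10 tested probes for the other fibulins, elastic fibre genes and lysyl oxidase relatives, 7, 6 and 6 were higher than lactation on days 2 to 4 in WT, and 6, 9, 9 and 9 on days 1 to 4 in E2F3 +/-. Loxl1, a lysyl oxidase relative needed for elastic fibres, rose by 2.82 ± 0.46 on WT day 2 (adjusted p = 3.97e-05) and 1.42 ± 0.46 in E2F3 +/- (0.0170). Efemp1, or fibulin-3, rose by 3.08 ± 0.49 (2.02e-05) and 1.63 ± 0.49 (0.0106), and was 1.56 ± 0.49 lower in E2F3 +/- than in WT on day 2 (0.0401), the gene behind both probes called in that comparison. Ltbp3 and Ltbp1 encode proteins that hold latent TGF-beta in the matrix. Ltbp1 rose by 1.94 ± 0.31 on E2F3 +/- day 2 (4.31e-05), with 0.57 ± 0.34 in WT (0.149), and Ltbp3 rose by 2.20 ± 0.44 (0.000425) and 1.67 ± 0.44 (0.00252). The difference between genotypes on day 2 was not called for Ltbp1 (0.76 ± 0.31, 0.0969) or Ltbp3 (0.55 ± 0.44, 0.402).

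Of 12 probes for collagens and associated genes, 11 were higher on day 2 in WT and 10 in E2F3 +/-, and 12 on E2F3 +/- day 3. Col3a1, a chain of fibrillar collagen, rose by 1.95 ± 0.50 (adjusted p = 0.00215) and 1.47 ± 0.50 (0.0220) on day 2, and Fn1, the matrix glycoprotein fibronectin, by 1.73 ± 0.39 (0.000650) and 1.94 ± 0.39 (0.000426). Col15a1, a collagen of basement membranes, rose on E2F3 +/- day 3 by 3.53 ± 0.86 (0.00173), with 2.26 ± 0.97 in WT (0.0659). Pcolce was lower in E2F3 +/- than in WT on day 2 (-1.26 ± 0.32, 0.0149), and 3 of the 12 probes were called lower there. On day 1, 8 of the 12 were higher than lactation in E2F3 +/- and 0 in WT, where 1 was lower. Whether the genotypes differ in that count was not tested.

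Among genes of the PDGF pathway 5 probes were tested, and 2, 3, 2 and 3 were higher than lactation on days 1 to 4 in WT and 1, 2, 2 and 3 in E2F3 +/-. With 5 probes, the E2F3 +/- counts of days 1 to 3 are close to the shares of all probes. Pdgfrb, the other PDGF receptor, rose by 1.69 ± 0.37 on WT day 2 (adjusted p = 0.000532) and 1.02 ± 0.41 on E2F3 +/- day 2 (0.0460). Csf1r, a receptor of the same family found on macrophages, rose by 1.50 ± 0.42 on WT day 2 (0.00415), with 0.69 ± 0.38 in E2F3 +/- (0.133). Grb2, a signalling adaptor, rose by 1.09 ± 0.28 on WT day 2 (0.00204), and Pik3r1, the regulatory subunit of PI3-kinase, rose on day 1 in WT (1.43 ± 0.46, 0.0187) and in E2F3 +/- (1.75 ± 0.46, 0.00484). On day 2, 1 of the 5 probes, a second Pik3r1 probe, was higher in E2F3 +/- than in WT (1.09, 0.0472), and 0 were lower.

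Of 6 TGF-beta related probes, 4, 5, 5 and 4 were higher on days 1 to 4 in WT and 3, 2, 5 and 5 in E2F3 +/-. Tgfb3, a TGF-beta ligand, was called on every day in both genotypes, at 2.49 ± 0.41 on WT day 1 (adjusted p = 6.12e-05) and 3.76 ± 0.41 on E2F3 +/- day 1 (3.60e-07), when no member was called in WT. Ccn2, a matricellular protein induced by TGF-beta, rose on WT day 1 (1.64 ± 0.48, 0.00992), and Tgfbr2, the type II receptor, in both genotypes on day 1 (0.70 ± 0.26, 0.0399, and 0.83 ± 0.26, 0.0155). Tgfbi, a TGF-beta induced matrix protein, rose by 2.14 ± 0.69 on WT day 2 (0.0109). Of the 3 probes for other intermediate filaments and partners, Des, the desmin of muscle, rose in WT on day 2 (2.16 ± 0.85, 0.0306) and day 4 (3.72 ± 0.85, 0.00122). Dst, which links filaments to adhesion sites, fell by 1.25 ± 0.38 on WT day 2 (0.00725), and Lmna, a nuclear lamin, rose on WT day 1 (0.85 ± 0.28, 0.0201). Lmna was also higher in E2F3 +/- than in WT on day 2 (0.92 ± 0.28, 0.0344), the 1 of 3 probes called there, and 0 of the 6 TGF-beta related probes were called in that comparison.

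**Figure D4:**
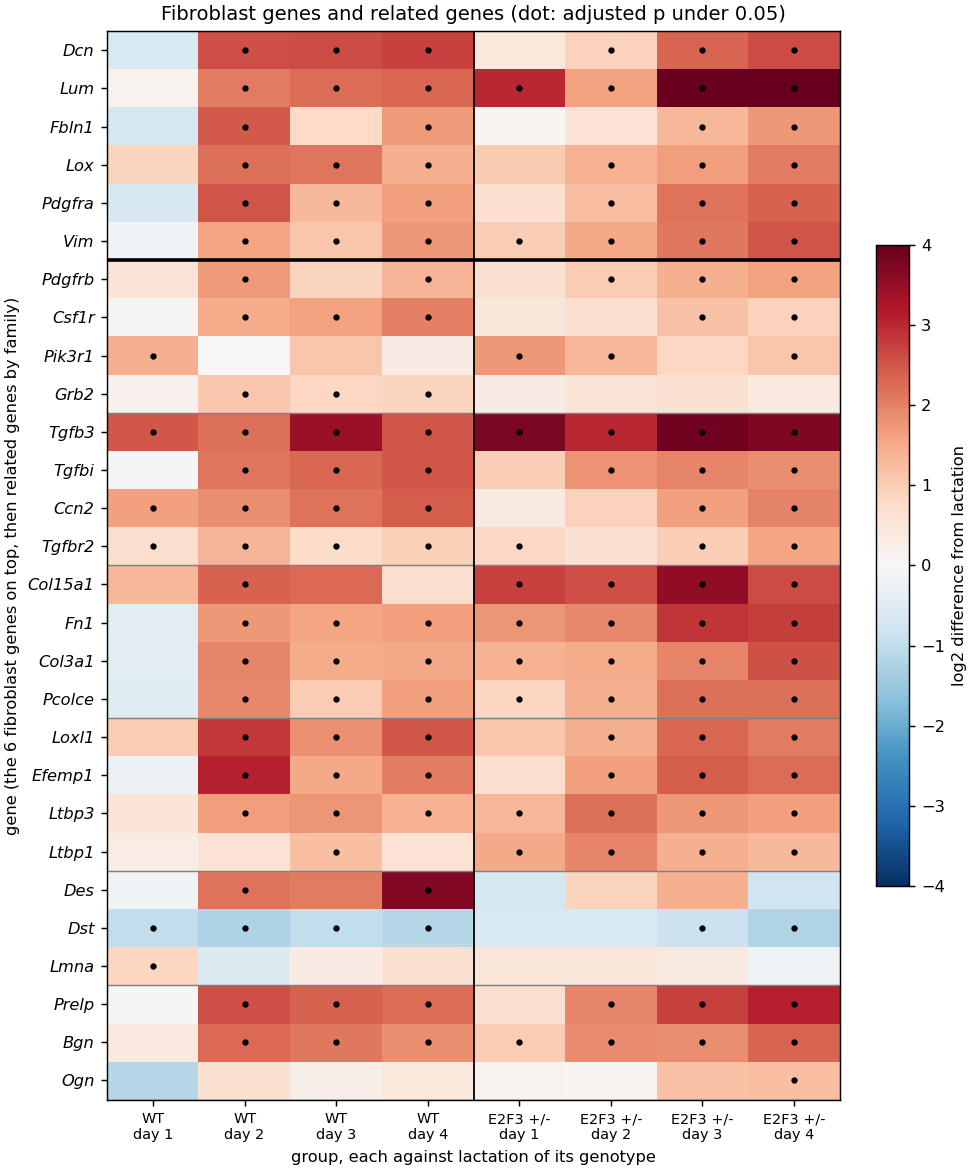
Log2 difference from lactation of the same genotype (colour scale) for the 6 genes, above the black line, and for related genes by family, below it, on days 1 to 4 in WT (left) and E2F3 +/- (right); a dot marks an adjusted p under 0.05. Dcn, Prelp, Bgn, Efemp1 and Loxl1 carry dots on day 2 in both genotypes.

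Lists of cell type genes were read beside the members, as means of centred log2 ratios per array. The shares of all probes given for the related genes apply to their counts too. On day 2, 33.4% of all probes were lower than lactation in WT and 22.2% in E2F3 +/-. From day 1 to day 2 in WT, 27.5% were called lower. Of 12 probes of other fibroblast genes, 9, 9 and 10 were higher than lactation on days 2 to 4 in WT and 6, 8, 10 and 10 on days 1 to 4 in E2F3 +/-. On day 2, 2 of the 12 were lower in E2F3 +/- than in WT, namely Mmp2, a matrix-degrading protease (-1.85, adjusted p = 0.00183), and Serpinf1 (-1.52, 0.00473). The mean of the list was 0.89, 1.84 and 1.10 in the WT day 2 arrays and lay between 0.14 and 0.95 in those of E2F3 +/-.

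Macrophage genes moved with the members. Of 14 macrophage probes, all were higher than lactation on days 2, 3 and 4 in WT, and 4, 12, 14 and 14 on days 1 to 4 in E2F3 +/-. On day 2, 9 of the 14 were lower in E2F3 +/- than in WT, among them Lyz2 (-3.42, adjusted p = 0.00305), Ctss (-2.32, 0.00497) and Tyrobp (-1.64, 0.00111), and 1 was higher, Cd14 (2.00, 0.0344). The list mean was 3.13, 4.69 and 3.27 in the WT day 2 arrays and lay between 1.61 and 2.21 in those of E2F3 +/-. Adgre1 and Itgb2 were missing on 4 and 5 of the 30 arrays and were not tested. Of 9 luminal epithelial probes, 3 were higher and 3 lower than lactation on WT day 2, and 4 were higher and 1 lower on E2F3 +/- day 2. All 9 were lower on WT day 2 than on day 1, and 2 of 9 were higher in E2F3 +/- than in WT on day 2, Lalba and Csn3 of milk. Their mean was 5.23, 3.43 and 5.10 in the WT day 2 arrays and lay between 5.48 and 5.83 in those of E2F3 +/-. The second WT day 2 array thus had the lowest luminal mean and the highest macrophage mean of its group. The part of these cell types in the members' differences was not tested.

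Skeletal muscle genes, which a gland sample can hold from the body wall, were higher than lactation for 10 of 10 probes on days 2 and 4 in WT and for 3 on day 3, and for 0, 2, 7 and 2 on days 1 to 4 in E2F3 +/-. These counts start from unlike levels. At lactation the mean of the list was -0.60, 2.32 and 0.80 in the WT arrays, the first from only 2 probes with a value. It was 3.07, 3.01 and 3.21 in the E2F3 +/- lactation arrays. On day 2, 0 of 10 muscle probes were called between genotypes, and their mean lay between 3.98 and 6.50 in WT and between 4.43 and 5.84 in E2F3 +/-. Their part in the rise against lactation was not tested. Of 4 endothelial probes, 2 were higher on day 2 in WT and 4 in E2F3 +/-, and 0 were called between genotypes. Of 5 myoepithelial and pericyte probes, 3 were higher and 2 lower on WT day 2, and 2 were higher in E2F3 +/- than in WT on day 2. Of 12 adipocyte probes, 4 were higher and 7 lower on WT day 2, and 4 were higher and 5 lower on E2F3 +/- day 2. Between genotypes on day 2, 1 adipocyte probe was higher and 2 were lower in E2F3 +/- than in WT.

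**Figure D5:**
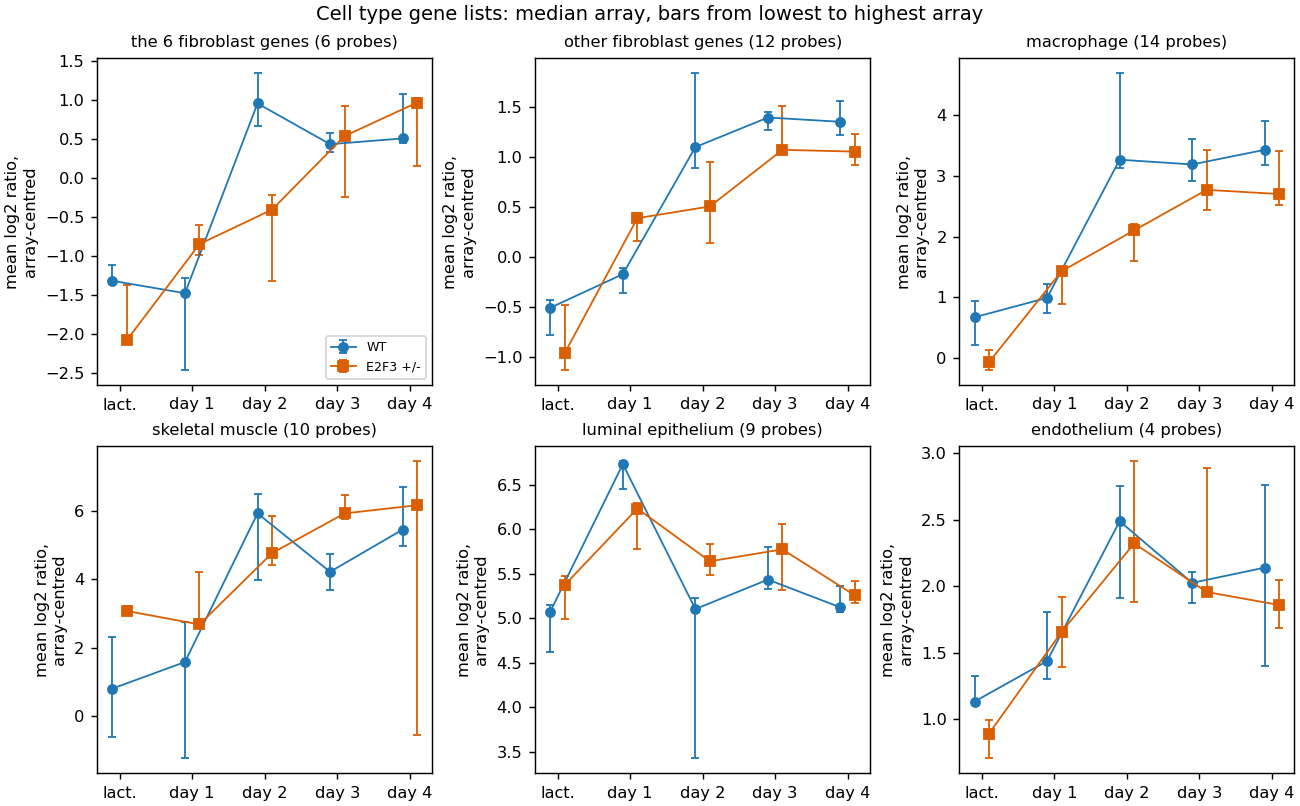
Mean array-centred log2 ratio of the probes of a list that had a value on the array (y axis) at lactation and on days 1 to 4 (x axis), blue WT and orange E2F3 +/-; symbols are the median array and bars run from the lowest to the highest of 3 arrays. The day 2 means of the 6 genes and of the macrophage list are separate between genotypes, while the skeletal muscle means overlap.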

How the data were processed

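Mammary gland RNA of WT and E2F3 +/- mice was measured on 30 two-colour arrays, 3 in each of 10 groups. Per the labels' protocols, RNA was prepared by caesium chloride ultracentrifugation, and amplified before labelling. The deposited value table holds linear ratios, with a median of 1 to 1.272 per array, for 6267 probes. The sources used here do not say how the authors corrected background, how they normalized these ratios or which way the ratios run. Single values stand for each spot, so no depth or interval within an array can be had, and the number of arrays limits the precision.

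Values listed at 0 (13146) or 0.01 (1223), which are 7.64% of all, were taken as missing. Among the members these were 2 values of Lum, 3 of Fbln1 and 1 of Lox, all on lactation or WT day 1 arrays, where these genes had low means. If they stand for signals too low to measure, the means of those groups are set too high. This was not tested. Ratios were put on the log2 scale and centred on each array's median. A probe was tested when at least 2 of 3 arrays had a value in every group (5010 probes). A model with 10 group means was fitted with limma 3.58.1 in R 4.3.3, with 20 residual degrees of freedom, and p-values were adjusted over all 5010 probes by the Benjamini-Hochberg method. The fit was tested on simulated data for the day 2 genotype comparison over 5010 probes, and recovered 4% of probes changed 1.5-fold, 28% at 2-fold, 88% at 4-fold and 96% at 8-fold. Figures were drawn with matplotlib 3.10.9.

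Probes were named from the platform annotation, with 1 symbol for 3997, several for 115 and none for 2155. Related genes are the named probes of 6 family lists, up to 4 genes from each by the mean difference from lactation over 8 comparisons. For each member the 3 genes with the highest Pearson r were named. The members and lists were chosen with earlier results of these data known. Alternatives were quantile normalization, no centring, other filters on missing values, array weights, a replicate block, a fit of only the groups compared and leaving out each array.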

Additional observations from a re-analysis of the deposited data

Results flagged for a closer look

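The course from lactation to day 4 was called different between the genotypes for 4 of the 6 genes by the limma F test of genotype by time, where 6.05% of all probes were called. The adjusted p was 0.0114 for Dcn, 0.0403 for Lum, 0.0477 for Fbln1 and 0.0394 for Pdgfra. Of 30 fits that left out 1 array, Dcn was called in 30, Lum in 16, Pdgfra in 15 and Fbln1 in 7. The step from day 1 to day 2, which was compared after the data had been seen, was called for the same 4 genes, where 2.67% of all probes were called in this direction. As E2F3 +/- minus WT on the log2 scale it was -2.70 for Dcn, -3.31 for Lum, -2.65 for Fbln1 and -2.58 for Pdgfra, and these were called in 30, 28, 27 and 29 of the 30 fits.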

How the results depend on the processing

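Of 811 values recomputed with other settings, 786 kept their direction and their side of the threshold, and of 2580 recomputed without 1 array, 2472 did. With array weights the members called higher became 1 on WT day 1 (Lox), where Pdgfra was called lower (-0.76, adjusted p = 0.0248), and 4 on E2F3 +/- day 1, and Dcn was called higher in E2F3 +/- on day 1 (0.88, 0.0266). The members called became 1 between genotypes at lactation (Lum), 1 for genotype by time on day 2, and 1 and 4 for the E2F3 +/- steps to day 2 and to day 3. Quantile normalization gave 1 on E2F3 +/- day 1 and 1 for the step to day 3. Fitting only the groups compared gave 3 on E2F3 +/- day 2 and 1 for genotype by time on day 2. Without both arrays that stand apart, 2 were called for the step of E2F3 +/- from day 2 to day 3. Over all probes, the genotype by time F test called 303, and 466 with quantile normalization, 1814 with array weights, 192 with the replicate block and 1095 without both arrays that stand apart. Array weights gave 1453, 1681, 1853 and 1951 probes higher on WT days 1 and 3 and E2F3 +/- days 1 and 2, and only the groups compared gave 1514 on WT day 3. For probes lower in E2F3 +/- on day 2, 279 became 87 with only the groups compared and 121 with array weights. Related probes called higher on WT day 1 fell from 7 to 4 with only probes on all 30 arrays or with the replicate block, and on WT days 2 and 3 to 19 and 15 with the former. Signs turned only for differences that were not called. These were Lum on WT day 1 (-0.050, array weights), Fbln1 on E2F3 +/- day 1 (-0.0016 with quantile normalization, -0.093 with the replicate block) and Lox between genotypes at lactation (0.53 with quantile normalization, 0.059 with array weights). The cause of these changes was not tested.

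Leaving out 1 array at a time, members called ranged from 0 to 1 on WT day 1, from 1 to 2 and from 1 to 5 on E2F3 +/- days 1 and 2, from 4 to 6 on E2F3 +/- day 3, from 2 to 5 between genotypes on day 2, from 0 to 1 for genotype by time on day 2, from 0 to 2 for WT day 3 against day 2, from 0 to 4 for E2F3 +/- day 3 against day 2, from 2 to 4 for the difference in the step from day 1 to day 2 and from 1 to 5 in the genotype by time F test. Over all probes that F test called from 53 to 1343, and from 51 to 382 probes were lower in E2F3 +/- on day 2. The differences whose sign turned ranged from -0.25 to 0.55 for Lum on WT day 1, from -0.61 to 0.76 and from -0.15 to 1.22 for Fbln1 on E2F3 +/- days 1 and 2, from -1.05 to 0.32 for Fbln1 and from -0.70 to 0.45 for Lox between genotypes at lactation, and from -0.026 to 0.12 for Lox between genotypes on day 1.

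The labels do not say whether a replicate number marks anything shared between groups, and correlations between arrays cannot settle it. The median r of deviations from the group means was 0.0086 for pairs with the same number and -0.0066 for other pairs. Of 135 pairs with the same number, 35 had deviations from the group means that correlated above 0.1, and with the replicate block the adjusted p of Lum for genotype by time was 0.0538. In simulated data for the day 2 genotype comparison, 28% of 2-fold and 4% of 1.5-fold changes were recovered, with 4 false calls. Most differences of that size were thus missed in that setting. The simulation drew independent noise and changed 50 probes at each fold, so its rates need not hold for the real arrays.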
